A study of Caenorhabditis elegans with 2 samples.

Results

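Neuropeptide precursor genes were examined for occupancy by the homeobox transcription factor CEH-9 of Caenorhabditis elegans in chromatin immunoprecipitation sequencing (ChIP-seq) peak lists. They were taken as the protein-coding genes of the Ensembl WBcel235 annotation named flp-, nlp- or ins- with a number, together with ntc-1, pdf-1 and daf-28. This gave 143 of 19973 protein-coding genes: 31 flp, 71 nlp and 38 ins genes and the 3 single genes. Precursor genes with other names, such as capa-1, fell outside the rule. The choice used names only and no measured value. All material came from 1 group, strain OP202, with the genotype unc-119(ed3) III and the transgene wgIs202, which supplies CEH-9 carrying GFP-FLAG at its C terminus. Whole late embryos of both sexes were harvested 4.75 h after egg bleaching had synchronized them, in 2 biological replicates, and an antibody against GFP was used. No untagged strain was analysed here, and whole embryos assign no peak to a cell type. In a transgenic line the tagged protein need not match the native one in amount or place, and this was not tested.

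Neuropeptides are cut from larger precursor proteins, packed into dense core vesicles and released to act mostly on G protein-coupled receptors. In C. elegans the flp genes encode FMRFamide-like peptides, the ins genes insulin-like peptides, and the nlp genes a mixed class of other neuropeptide-like proteins. Insulin-like peptides act through the receptor DAF-2, and processing by the proprotein convertase EGL-3 and the carboxypeptidase EGL-21 serves most of the others. Homeobox factors are known in worms as selectors of neuronal identity, and neuropeptide genes are among the terminal genes of neurons.

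For each gene every peak summit from 2 kb upstream of the transcription start site (TSS) to the gene end was taken, and this stretch is called its window. The authors deposited 207 reproducible peaks, a pooled relaxed list of 30000 entries and 1 relaxed list of 30000 entries for each replicate. A relaxed list has a fixed length and reaches into background, so a summit in it was read by its rank, where 1 is the highest signal. The signal is the authors' own value and was compared only within a list. Pooled signals ran between 22.5 and 416, and the weakest reproducible peak had 73.4. The lists hold no read counts, so depth is unknown. All coordinates are of the ce11 build.

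Reproducible peaks lay in the windows of only 3 of the 143 genes, nlp-76, flp-23 and ntc-1. This was 2.10% (exact 95% interval 0.435 to 6.01%), beside 1.07% of the 19830 other protein-coding genes, a share inside that interval. The summits at nlp-76 and flp-23 lay at transfer RNA (tRNA) genes, and the one at ntc-1 did not. Such positions were common outside the set too. Without summits at tRNA and other small RNA genes, the share of other genes fell from 1.07% to 0.474%. By family the count was 1 of 31 flp genes (3.23%, exact 95% interval 0.0816 to 16.7%), 1 of 71 nlp genes (1.41%, 0.0357 to 7.60%) and 0 of 38 ins genes (upper bound 9.25%). The intervals overlap, and they cover the counting of genes only.

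The sequences under these 3 summits, and under 3 weaker ones described further on, are shown to let the tRNA genes and the homeodomain core sites be seen. In the first pair the capitals mark only the tRNA gene, read on its own strand, and any core site beside it is left unmarked. In the other 4 windows, of 151 bases centred on the summit and read on the strand of the neuropeptide gene, capitals mark TAATTA, or TAATTG on either strand. All were read from the RefSeq WBcel235 genome, at chrX:12665168-12665371 (plus strand), chrIII:8650321-8650512 (minus), chrX:4864083-4864233 (plus), chrX:7028363-7028513 (plus), chrX:8919614-8919764 (minus) and chrIV:13147823-13147973 (plus), in the order given.
tRNA-Tyr upstream of nlp-76: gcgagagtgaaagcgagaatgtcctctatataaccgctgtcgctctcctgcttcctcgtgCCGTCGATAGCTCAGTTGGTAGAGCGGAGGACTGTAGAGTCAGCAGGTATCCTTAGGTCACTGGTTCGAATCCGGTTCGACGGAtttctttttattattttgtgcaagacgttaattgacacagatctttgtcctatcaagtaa
tRNA-Pro upstream of flp-23: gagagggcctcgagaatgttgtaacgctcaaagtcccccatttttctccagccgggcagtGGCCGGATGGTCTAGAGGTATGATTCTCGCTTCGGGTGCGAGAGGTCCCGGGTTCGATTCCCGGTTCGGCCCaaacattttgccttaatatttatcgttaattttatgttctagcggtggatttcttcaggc
ntc-1 summit: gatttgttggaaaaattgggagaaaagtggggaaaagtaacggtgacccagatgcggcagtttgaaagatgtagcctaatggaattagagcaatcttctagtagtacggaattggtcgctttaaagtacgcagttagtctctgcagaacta
flp-26 summit: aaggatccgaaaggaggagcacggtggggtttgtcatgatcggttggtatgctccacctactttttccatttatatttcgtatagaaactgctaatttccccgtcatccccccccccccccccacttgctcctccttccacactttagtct
nlp-14 summit: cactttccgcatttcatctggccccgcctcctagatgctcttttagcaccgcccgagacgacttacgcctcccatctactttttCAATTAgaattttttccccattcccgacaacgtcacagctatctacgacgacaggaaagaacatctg
nlp-79 summit: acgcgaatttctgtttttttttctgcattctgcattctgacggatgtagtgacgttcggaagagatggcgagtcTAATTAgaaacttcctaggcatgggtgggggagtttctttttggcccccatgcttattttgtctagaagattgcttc

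The peak of nlp-76 (WBGene00045386, chromosome X, 12662478 to 12663903, minus strand) was the strongest of the set. It ranked 35 in replicate 1, 38 in replicate 2 and 43 in the pooled list (pooled signal 137), and spanned 12664993 to 12665412. It was high in both replicates, and nlp-76 was the only one of the 143 genes with a summit among the 1000 strongest of each replicate at the same place, within 100 bp (0.699%, beside 0.857% of other genes). The summit lay 1300 bp upstream of the TSS of nlp-76, in an intron of the nuclear hormone receptor gene nhr-17, whose 3′ end overlaps the start of nlp-76. It was also 25 bp outside the 5′ end of the tyrosine tRNA gene WBGene00009555 (12665228 to 12665311, plus strand). That tRNA gene is 84 bp long, and 6 tRNA genes of the annotation, itself included, have this exact sequence. Of these 6, 2 had a reproducible summit within 100 bp, again with this gene included. GTTCGA, part of the B box promoter element inside tRNA genes, occurs 2 times in the printed gene, and the first begins at base 64.

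The peak of flp-23 (WBGene00017693, chromosome III, 8650767 to 8652194, plus strand) was carried by replicate 2. Its summit ranked 103 there, 5109 in replicate 1 and 131 in the pooled list (pooled signal 87.3), and the pooled peak spanned 8650202 to 8650621. The summit lay 355 bp upstream of the TSS, between protein-coding genes and inside the proline tRNA gene WBGene00023002 (8650381 to 8650452, minus strand). Of the 4 tRNA genes with exactly this 72-base sequence, this one included, 2 had a reproducible summit. Another proline tRNA gene in the set, of a different sequence, lies in the window of nlp-62, and it had no pooled summit within 100 bp. In the printed gene GTTCGA begins at base 52. The sources used here do not say how reads matching several identical tRNA genes were placed.

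The peak of ntc-1 had no small RNA gene near it. This gene (WBGene00044568, chromosome X, 4866098 to 4866690, plus strand) encodes nematocin, a relative of vasopressin and oxytocin that acts in male mating and gustatory learning. Its summit ranked 1253 in replicate 1, 412 in replicate 2 and 154 in the pooled list (pooled signal 80.5), and the pooled peak spanned 4863948 to 4864367. The peak thus stood lower within each replicate than in the pooled list. The summit was 1940 bp upstream of the TSS, between protein-coding genes, and ntc-1 had the nearest protein-coding TSS. It was close to the limit of the window, and the nearest small RNA gene was 74954 bp away. Neither TAATTA nor TAATTG occurs in the 151 bases printed above. Just outside the windows, reproducible peaks lay 3042 bp upstream of nlp-26 (pooled rank 153) and 3887 bp upstream of nlp-46 (rank 130), both nearest to the TSS of another gene.

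**Figure D1:**
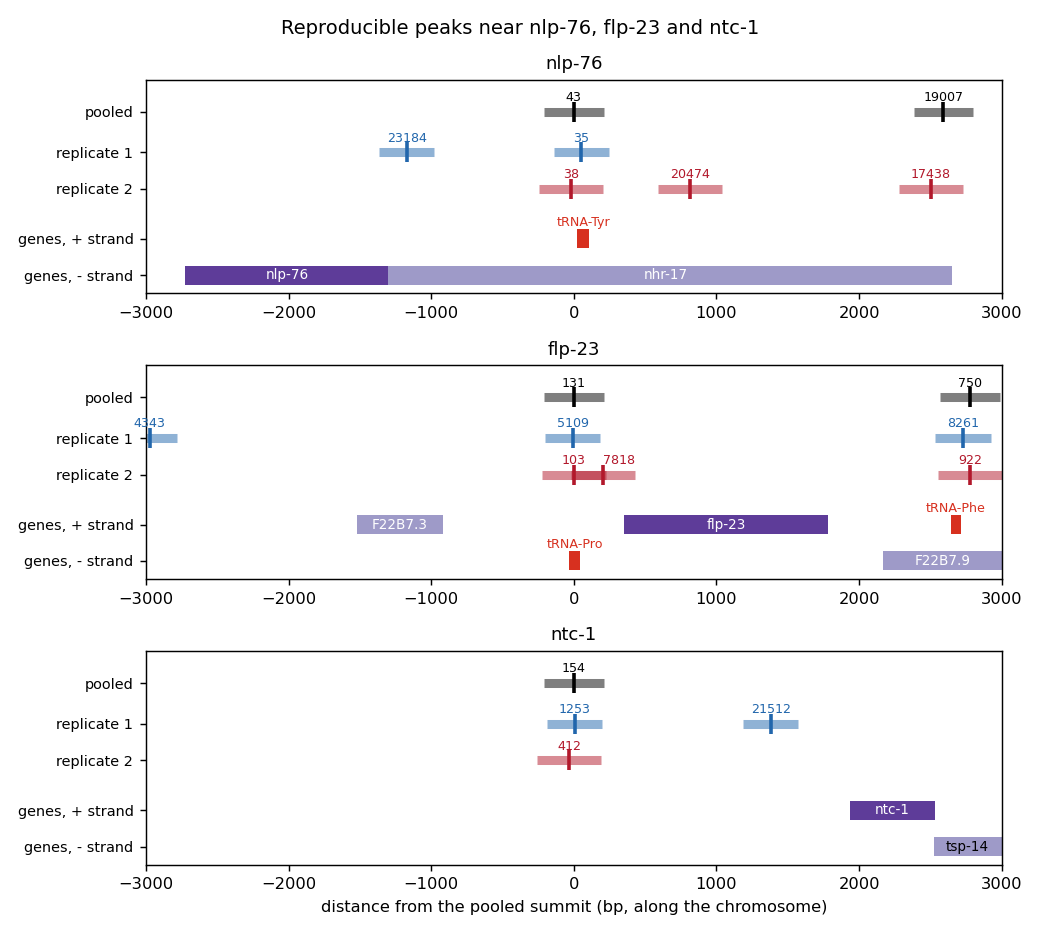
Peaks (bars) and summits (ticks) from pooled and single-replicate lists around the reproducible peaks of nlp-76, flp-23 and ntc-1, by distance from the pooled summit in bp, with ranks written above; protein-coding genes are purple and tRNA genes red. The ranks at the centre are 43, 35 and 38 for nlp-76, 131, 5109 and 103 for flp-23, and 154, 1253 and 412 for ntc-1, and a tRNA gene lies within 25 bp of the summit at nlp-76 and flp-23 but not at ntc-1.

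No further member had a summit among the 1000 strongest of the pooled list, so the count stayed at 3 (2.10%, exact 95% interval 0.435 to 6.01%) beside 5.32% of other genes. Among the 3000 strongest it was 11 of 143 (7.69%, exact 95% interval 3.90 to 13.3%) beside 14.2% of other genes, with 4 of 31 flp, 4 of 71 nlp and 2 of 38 ins genes (12.9%, 5.63% and 5.26%). In either replicate alone the counts among the 1000 strongest were 5 of 143 in replicate 1, beside 5.22% of other genes, and 4 of 143 in replicate 2, beside 5.25%. Windows of the set were shorter than those of other genes, with a median of 2.90 kb against 4.03 kb, and longer windows hold more summits.

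The best ins genes came next. The deposited −log10 q of the pooled peak was 2.49 at nlp-76, flp-23 and ntc-1. It was only 0.599 at ins-36, and lower at the other pooled summits of members described below. None of these weaker summits was in the reproducible list, and they may be background. The summit of ins-36, on chromosome I, had pooled rank 1011, with 11531 in replicate 1 and 1389 in replicate 2, and lay in a coding exon of Y53H1A.7, whose TSS was nearer to it than that of ins-36. The summit of ins-17 ranked 1034 pooled, 4755 in replicate 1 and 21441 in replicate 2. It lay in a coding exon of ins-17 itself, 88 bp from the TSS. The third of the family, ins-37, had a summit at rank 3449 pooled and 1647 in replicate 1, with none within 100 bp in replicate 2. It lay in a coding exon of the neighbouring gene F08G2.7, and the snRNA gene F08G2.9 was 662 bp away. None of these summits was strong in both replicates.

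Among flp genes, flp-26 followed flp-23. Its summit, 698 bp upstream of the TSS, ranked 1335 pooled and 625 in replicate 2, and replicate 1 listed no summit in the window. The gene flp-34, which encodes a neuropeptide Y-like peptide, had a summit 592 bp upstream at rank 1616 pooled and 5134 in replicate 2, with none within 100 bp in replicate 1, whose best summit of the window (rank 1190) lay 753 bp upstream. The gene flp-6 had one 549 bp upstream at rank 2725 pooled and 1182 in replicate 2, again with none that near in replicate 1. All 3 lay between protein-coding genes, and each was matched within 100 bp by a summit of replicate 2 alone.

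Among nlp genes, nlp-14, which encodes orcokinin-like peptides, had a summit 266 bp upstream of the TSS at rank 2185 pooled and 4120 in replicate 2, with none within 100 bp in replicate 1. The summit of nlp-79 lay 1678 bp upstream and ranked 2207 pooled, 4339 in replicate 1 and 12755 in replicate 2. That of nlp-56, in its coding exon 594 bp from the TSS, ranked 2560 pooled, 3537 in replicate 1 and 18101 in replicate 2. The nlp-14 window printed above holds a TAATTG core beginning 9 bases after the summit, and the nlp-79 window a TAATTA core beginning 1 base before it. These were the best ranked members of the set with such a core.

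**Figure D2:**
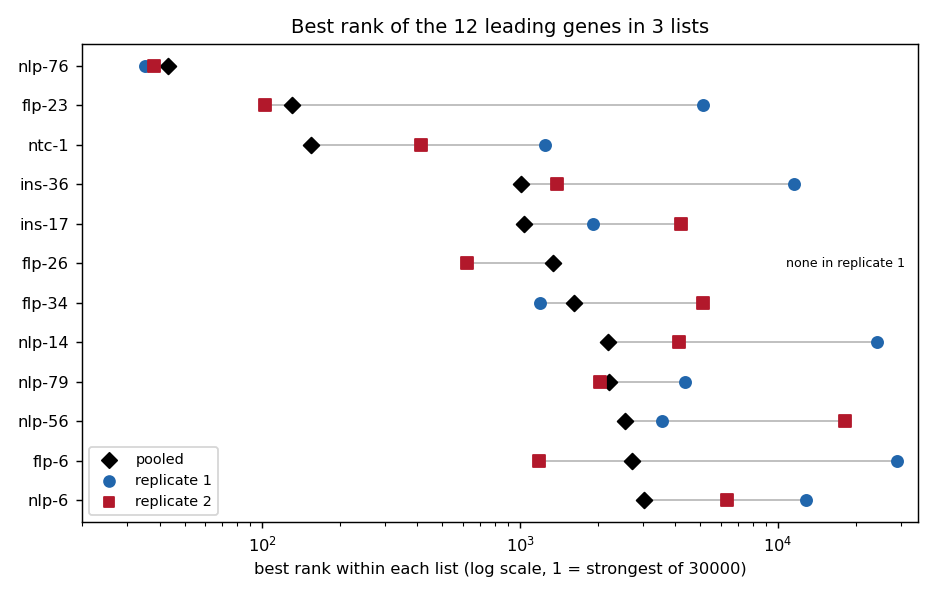
Best rank of any summit in the window of each of the 12 leading genes (log axis, 1 is the strongest of 30000) in the pooled list (diamonds) and the lists of replicates 1 (circles) and 2 (squares). The gene nlp-76 has ranks 43, 35 and 38, flp-23 is far lower in replicate 1 (5109) than in replicate 2 (103), and flp-26 has no summit in replicate 1.

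Some members were strong in a single replicate. These were chosen after their values were seen. In replicate 1, flp-14 had a summit of rank 262 in its window, flp-10 one of rank 657 and nlp-25 one of rank 507. The summits of flp-14 and flp-10 had no pooled summit within 100 bp, and flp-10 had none at all in replicate 2 or the pooled list. The gene nlp-12, which encodes cholecystokinin-like peptides that modulate locomotion, had a summit of rank 995 in replicate 1 and a best rank of 2800 in replicate 2, at a different place.

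A pooled summit of any rank lay in the windows of 75 of the 143 genes (52.4%, exact 95% interval 43.9 to 60.9%) beside 67.1% of other genes. The share was 64.5% of flp (20 of 31, 45.4 to 80.8%), 50.7% of nlp (36 of 71, 38.6 to 62.8%) and 47.4% of ins genes (18 of 38, 31.0 to 64.2%). Of the 75, 47 had 1 summit, 17 had 2 and 11 had 3 or more, with the most at flp-14 (6) and flp-18 (5). In replicate 1 the share was 62.9% beside 70.4% of other genes, and in replicate 2 it was 51.0% beside 67.7%. In no relaxed list was there any summit for 31 of the 143 genes (21.7%), beside 16.2% of other genes.

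Genes without a pooled summit included signals with well studied roles. The gene pdf-1, whose peptides resemble pigment dispersing factor and act in roaming and mate searching, had no summit in any of the 3 lists. The gene daf-28, an insulin-like signal that prevents entry into the dauer stage, had only 1 summit, of rank 9359 in replicate 1. Of the others without a pooled summit, the first by name were flp-10, flp-12, flp-13 and flp-20.

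**Figure D3:**
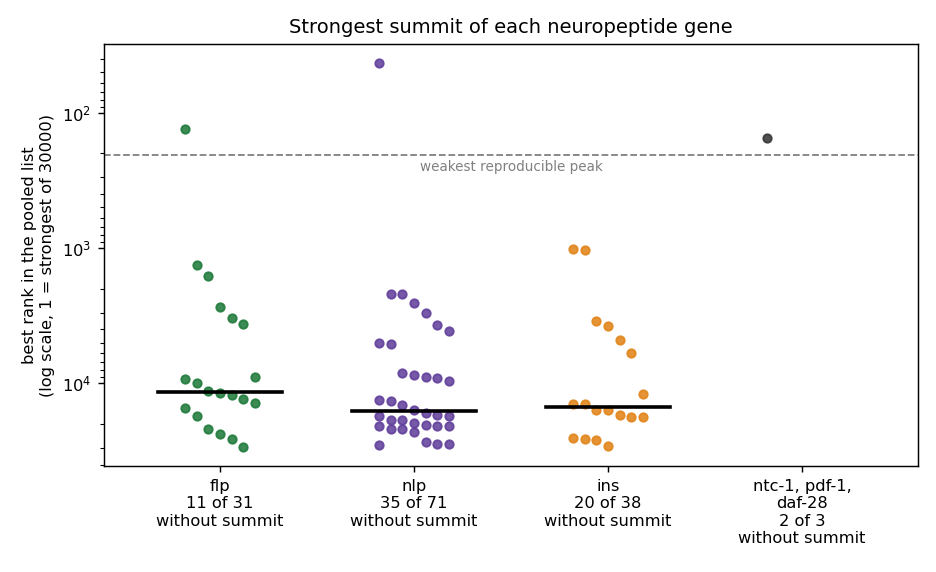
Best rank in the pooled list (log axis, strongest at the top) of each neuropeptide gene with a summit in its window, by family, with family medians as bars, and the number without a summit under each name. The 3 genes above the dashed line at rank 207 are nlp-76, flp-23 and ntc-1, and the medians are 11604.5 for flp, 16178 for nlp and 15012.5 for ins genes.

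Window length was taken into account by comparing genes of similar windows. In windows under 2.5 kb, 7 of 24 neuropeptide genes had a pooled summit (29.2%) beside 45.1% of 1148 other genes. From 2.5 to 3 kb the shares were 47.2% of 53 and 55.0% of 2426, and from 3 to 4 kb 58.3% of 36 and 57.0% of 6169. From 4 to 6 kb they were 68.4% of 19 and 70.5% of 5696, and above 6 kb 81.8% of 11 and 89.3% of 4391. The neuropeptide share was the lower one in 4 of the 5 length classes of the pooled list, in 3 of 5 in replicate 1 and in 5 of 5 in replicate 2. The replicates went opposite ways in 2 classes. Under 2.5 kb the shares were 54.2% beside 44.5% in replicate 1 and 25% beside 45.4% in replicate 2. From 3 to 4 kb they were 77.8% beside 61.1% in replicate 1 and 52.8% beside 57.8% in replicate 2.

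**Figure D4:**
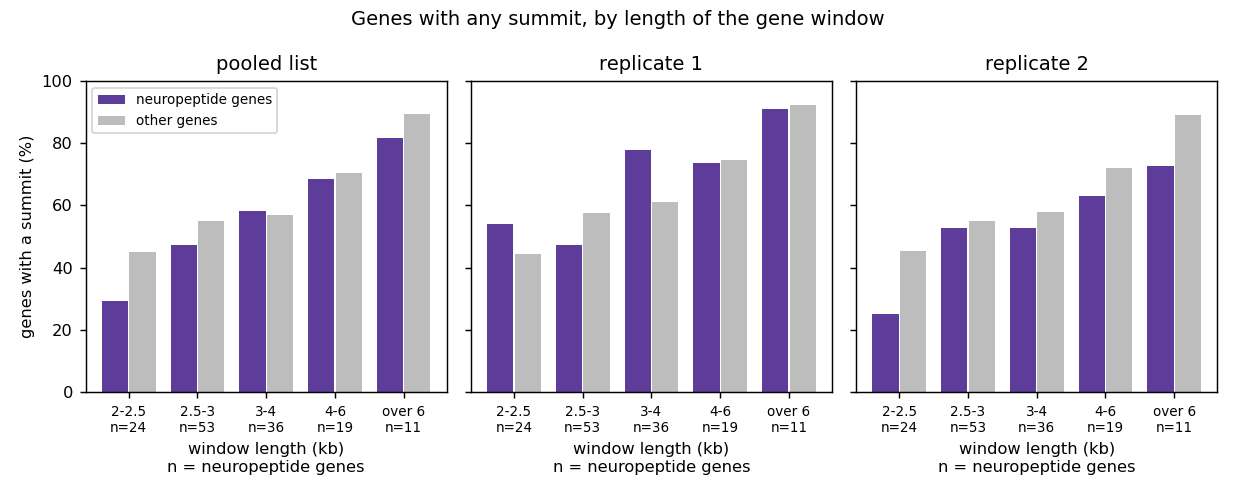
Percent of genes with a summit of any rank, for neuropeptide genes (purple) and other protein-coding genes (grey), by length of the gene window in kb, with a panel for the pooled list and for each replicate. Shares rise with window length in both sets of the pooled list, between 29.2 and 81.8% for neuropeptide genes and between 45.1 and 89.3% for other genes.

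Per kilobase of window the set held 0.253 pooled summits (in 470.9 kb of merged windows) beside 0.317 for other genes. Replicate 1 gave 0.306 beside 0.314, and replicate 2 gave 0.259 beside 0.317. The gap between the sets was thus small in replicate 1. The set had 144 summits in replicate 1 and 122 in replicate 2, and other genes 25536 and 25750. With so few summits, the larger difference between the replicates of the set cannot be read as a trait of these genes. By family the pooled density was 0.329 for flp, 0.235 for nlp and 0.215 for ins genes. Replicate 1 gave 0.345, 0.290 and 0.297 for the 3 families, and replicate 2 gave 0.289, 0.244 and 0.277. The flp genes were highest in all 3 lists, while nlp and ins changed places.

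In the pooled list the density of summits by region differed between the families, on small counts and less so in replicate 1. In the last kilobase before the TSS, flp genes had 0.484 pooled summits per kb, with 0.419 in replicate 1 and 0.452 in replicate 2, beside 0.311, 0.311 and 0.308 for other genes. The ins genes had 0.134, 0.348 and 0.187 there, and nlp genes 0.214, 0.200 and 0.315. Farther out, between 2 and 1 kb upstream, flp genes had 0.129, 0.387 and 0.0645, beside 0.290, 0.293 and 0.291 for other genes. Inside the gene, ins genes had 0.452, 0.355 and 0.485, beside 0.330, 0.326 and 0.331. The density of flp genes near the TSS and of ins genes in the gene body was above that of other genes in all 3 lists. This does not show that the lists held the same summits. Over whole windows, 6 of the 41 pooled flp summits (14.6%) had a summit of both replicates within 100 bp, beside 20.6% at other genes. For ins genes this held for 7 of 21 (33.3%). The pooled list was derived from both replicates, so it is not a separate measurement. These are small numbers. In the last kilobase before the TSS the flp genes had 15 pooled summits, with 13 in replicate 1 and 14 in replicate 2. The ins genes had 14, 11 and 15 in the gene body. In replicate 1 the densities were close for flp genes in the 2 upstream regions (0.387 and 0.419). They were also close for ins genes near the TSS and in the gene body (0.348 and 0.355). The nlp genes had a higher density in the gene body (0.379) than the ins genes in that replicate. No test was made.

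**Figure D5:**
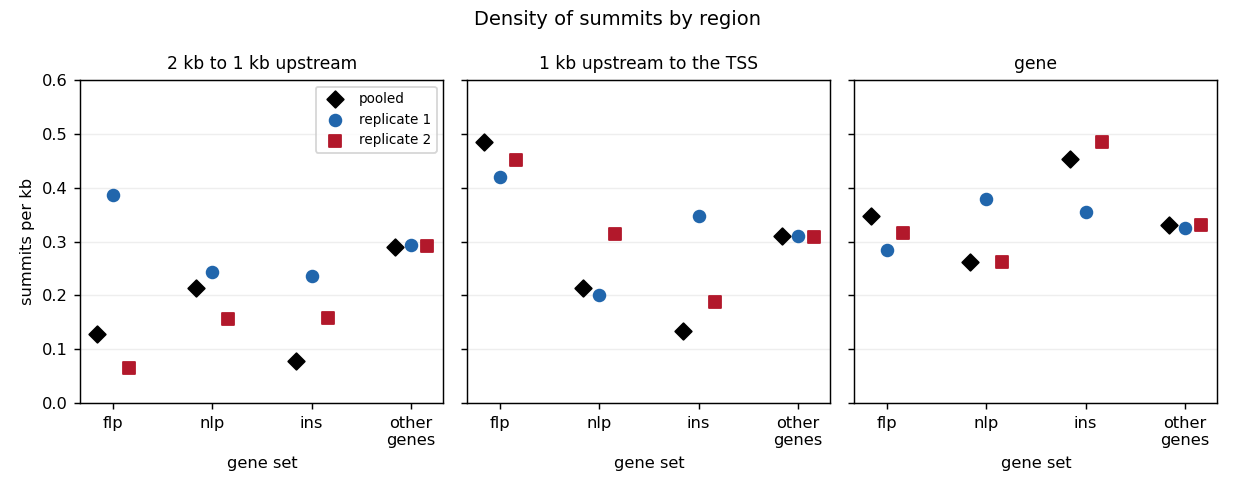
Summits per kb in 3 regions of the windows for flp, nlp and ins genes and for other protein-coding genes, in the pooled list (diamonds) and the lists of replicates 1 (circles) and 2 (squares). Other genes lie between 0.290 and 0.331 in every region and list, while flp genes lie between 0.419 and 0.484 in the last kilobase before the TSS.

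The ins genes lie in clusters, on chromosomes II (15 of 38) and I (10 of 38) above all, and 17 of the 38 windows overlapped that of another member. For the whole set this held for 28 of 143 windows. Even so only 3 pooled summits fell in the windows of more than 1 member, shared by ins-14 and ins-15 (rank 15807), by ins-19 and ins-31 (rank 17684) and by nlp-22 and nlp-23 (rank 18815). None of the 21 pooled summits of the ins genes lay at a small RNA gene (exact upper bound 16.1%), beside 1.46% of the pooled summits outside the set. With so few summits, this count cannot tell the ins genes from the rest of the list. Stretches between protein-coding genes made up 56.9% of the ins windows, but they held only 4 of the 21 pooled summits (0.0721 per kb, with 0.252 in replicate 1 and 0.126 in replicate 2), beside 0.273 per kb for other genes (0.274 and 0.268).

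Across the set, 25 pooled summits lay in coding exons, 12 in untranslated exons, 42 in introns and 40 between protein-coding genes (33.6%). Stretches between protein-coding genes made up 46.1% of the windows and held 0.184 pooled summits per kb, beside 0.273 for other genes. Replicate 1 gave 0.253 beside 0.274, and replicate 2 gave 0.189 beside 0.268. Coding exons made up 12.8% of the windows, so their density, 0.416 per kb, was the highest of the 4 classes, with 0.433 in replicate 1 and 0.433 in replicate 2. For other genes it was 0.375, 0.356 and 0.378, also the highest of the 4 classes. The nearest protein-coding TSS belonged to a member for 103 of the summits (86.6%). This share was not counted for other genes, so it cannot be called high or low.

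Small RNA genes accounted for few of these summits. They comprised genes for tRNAs, small nucleolar RNAs (snoRNAs), small nuclear RNAs (snRNAs), and the RNA parts of the signal recognition particle, RNase P and RNase MRP. Of the pooled summits of the set, 2 lay within 100 bp of one (1.68%, exact 95% interval 0.204 to 5.94%), those of nlp-76 and flp-23, beside 1.46% of the other 29881 pooled summits. In all, 8 of the 143 windows (5.59%) held a small RNA gene, beside 4.38% of other genes. The other 6 windows were those of ins-7 and ins-8, which share an snRNA gene, ins-37 and nlp-5 with snRNA genes, nlp-78 with a snoRNA gene and nlp-62 with a tRNA gene. No pooled summit lay within 100 bp of any of those RNA genes.

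Replicate matches, base composition and core sites were counted for all summits of the set. Of the pooled summits of the set, 52 (43.7%) had a replicate 1 summit within 100 bp, 73 (61.3%) a replicate 2 summit, 27 (22.7%) both and 21 (17.6%) neither. At other genes the shares were 41.5%, 62.4%, 20.6% and 16.7%. The median GC content of the 151 bp around the summits was 41.1%, beside 40.4% for the rest of the pooled list. TAATTA occurred in 8 of these stretches (6.72%), beside 5.14% of the rest and 1.93% of the 207 reproducible peaks. TAATTG occurred in 10 (8.40%), beside 9.27% and 2.42%. At least 1 of them was found in 17 of them, 5 of which ranked among the 5000 strongest. These were nlp-14, nlp-79, nlp-46, flp-14 and ins-18.

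The partners of these peptides were listed too. Of 19 names for processing and release, 18 matched, since rab-2 and unc-108 name the same gene. None of the 18 had a reproducible peak in its window, and 1 (5.56%) had a summit among the 1000 strongest of the pooled list, beside 5.32% of other genes. A pooled summit of any rank lay in the windows of all 18 (100%), beside 67.1% of other genes. The gene with a summit among the 1000 strongest was egl-21, the carboxypeptidase that trims most neuropeptides, whose best summit ranked 650 pooled, with best ranks in the window of 705 in replicate 1 and 4634 in replicate 2. The pooled summit lay in a coding exon 127 bp from the TSS, and the replicate summits were not matched to it. The convertase gene egl-3 had a best pooled rank of 22421. The windows of the 18 genes had a median of 6.88 kb, longer than those of the peptide genes (2.90 kb) and of other genes (4.03 kb).

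Of 107 receptor genes, 0 had a reproducible peak, and 4 (3.74%) had a summit among the 1000 strongest of the pooled list, beside 5.32% of other genes. A pooled summit of any rank lay in the windows of 64 (59.8%), beside 67.1% of other genes. The receptor windows had a median of 5.83 kb, longer than the 4.03 kb of other genes. The insulin receptor gene daf-2 had the best pooled summit, at rank 240, in an intron 4782 bp from the TSS. Its best ranks were 228 in replicate 1 and 282 in replicate 2. For receptor genes these are the best anywhere in the window, and whether they lay at the pooled summit was not tested. Its window, of 48.3 kb, was the longest of the list. The cholecystokinin receptor gene ckr-2, whose product responds to NLP-12, ranked 767 pooled, with best ranks of 3429 and 1782 in replicates 1 and 2. That pooled summit lay in a coding exon 7970 bp from the TSS of ckr-2, in a window of 14.3 kb. The TSS of another gene, Y39A3B.1, was the nearest to it. The other 2 were dmsr-4 (607) and dmsr-2 (863), members of a receptor family related to fly myosuppressin receptors. For the peptides with single members, the nematocin receptor gene ntr-1 had a best pooled rank of 14099, ntr-2 had no pooled summit, and the pdf-1 receptor gene pdfr-1 had 17444. These genes were named after their values were seen.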

How the data were processed

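The authors deposited peak lists in narrowPeak format for 2 replicates, for both pooled, and for the pooled peaks kept by an irreproducible discovery rate (IDR) filter. Per the deposited file listings, each list was derived from alignments and a control. No source used here names the aligner, peak caller or thresholds. Each deposited peak has the authors' signal value, used here by rank within a list, and a −log10 q. The −log10 q was quoted for the leading members and entered no count or rank. The ce10 lists were not used.

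Genes came from Ensembl release 115 (WBcel235, the ce11 assembly) and tRNA types and sequences from RefSeq. Windows, ranks and distances were computed with Python 3.11.15, numpy 2.4.6, pandas 2.3.3 and scipy 1.17.1, and figures with matplotlib 3.10.9. Density used merged windows and distinct summits. Intervals are exact binomial (Clopper-Pearson, 95%). There is 1 group, and no test between conditions or gene sets was made. Planted summits (200 in each of 5 simulated runs) were all returned.

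The members and lists were chosen with earlier results of these data known. Named are members with a reproducible peak, the 10 best ranked, the 3 best of each family, the 3 single genes and the first 5 by name without a pooled summit. capa-1 was taken out of the receptor list, since it encodes a peptide precursor. Genes named beyond this rule, flp-6 among them, were chosen after their values were seen. Classes of window length were added after the data were seen. Alternatives changed the window, the rank limit, the treatment of small RNA genes, and the list.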

Additional observations from a re-analysis of the deposited data

How the results depend on the processing

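Of 48 alternatives for the counts, densities, ranks and shares of the set, 22 stayed within 1.5 times a count, 1 SD of the replicates or the interval of a share, and 26 did not. The count of 3 genes with a reproducible peak is small and depends on the window. It was 1 (0.699%) with an upstream reach of 1 kb or 500 bp, beside 0.883% and 0.726% of other genes, and again 1 within 1 kb of the TSS (beside 0.565%), without summits at small RNA genes (beside 0.474%) or in the stronger part of the list (beside 0.540%). A reach of 5 kb gave 5 (3.50%) beside 1.73%. The 207 strongest of 1 replicate gave 1 to 2 genes, beside 1.10 to 1.13% of other genes. The count of 3 genes among the 1000 strongest pooled became 1 with a reach of 1 kb or 500 bp or without small RNA genes, 9 with 5 kb (6.29%, beside 7.80%), 7 among the 2000 strongest (4.90%, beside 9.95%) and 4 to 5 in a single replicate (2.80 to 3.50%, beside 5.22 to 5.25%). All these shares, those with 1 gene included, were below that of other genes. The density of 0.253 summits per kb was 0.301 with a reach of 500 bp and ranged between 0.259 and 0.306 over the replicates. The median best rank of 14007 (9106 for other genes) was 14875 with 1 kb, 14218 with 500 bp, 12853.5 with 5 kb, 14187 where windows ended at the next gene, 15079 within 1 kb of the TSS and 14156 without small RNA genes, and ranged between 11918 and 12060.5 over the replicates. Each of these moved by more than 101, the SD between the replicates, and was higher than the median of other genes under the same setting. The single gene strong in both replicates became 2 among the 2000 strongest (1.40%, beside 1.44% of other genes). It became 0 with summits within 50 bp or without small RNA genes, so nlp-76 is lost there. For these settings with 0 the share of other genes was not counted. The cause of these moves, beyond the smaller or larger window or list, was not tested. For 11 named members under 9 settings, 68 of 99 best ranks stayed within the spread of the replicates, 18 moved further and 13 were lost because no summit was left. The losses fell on nlp-76 (5 settings), ntc-1 (3), flp-26 and ins-37 (2 each) and flp-23 (1). The spread was the SD of each gene's own 2 replicate ranks, so genes with discordant replicates stayed within it more easily. A rank also stayed where the changed window still held the same summit. The 68 therefore do not measure how stable a rank is. No paired analysis was possible because the series has a single group. Depth is unknown, so no limit of detection can be given.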
